A study of Mus musculus with 16 samples.

Results

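Mouse embryonic stem (ES) cells that received the peptide DEL on a DNA-binding protein aimed at Ptn were compared with cells that received the construct called Delta on the same protein, as 4 arrays against 4 arrays out of the 16 in the series. The 8 arrays were chosen by their titles, and all 55681 non-control probes were considered, of which 19575 were tested. All cells were E14 ES cells, grown in medium with 15% fetal bovine serum and 1000 units/ml of LIF, transfected with 3 µg of plasmid and 7 µl of Lipofectamine 2000, and given fresh medium at 5 h. They were sorted on eGFP fluorescence at 24 h, put back into culture, and harvested for RNA at 48 h. The plasmids were Ptn(TALE)DEL and Ptn(TALE)Delta, and the other 8 arrays held cells given eGFP alone or Ptn(TALE)VP64. Each group had 2 biological and 2 technical replicates, with no statement of which arrays repeat a sample, so a spread over 4 arrays is partly technical. The cells are a transient transfection of 1 cell line, kept for their fluorescence, and nothing in the arrays measures how much TALE protein a cell held.

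A TALE is a bacterial DNA-binding protein whose repeats can be arranged to read a chosen sequence, and it is used to carry another domain to a gene. VP64 is a strong transcriptional activator made from a viral motif. DEL is an acidic peptide known for opening compact chromatin without recruiting the transcription machinery. In the published work on this system Delta is known as the TALE without an activation domain; the labels themselves do not say what Delta carries. Ptn codes for pleiotrophin, a secreted growth factor that binds heparan sulfate and signals through receptors such as Ptprz1 and Alk, and its gene is mostly silent in ES cells and active in neural progenitors. Comparing DEL with Delta asks whether the peptide changes expression beyond what the DNA-binding part does.

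In the published work on this system the TALE is known to be aimed at the Ptn promoter. The 250 bases before the Ptn start in RefSeq (GRCm38.p6, chr6:36810180-36810429, minus strand) are shown because this is the region upstream of the gene to which both constructs were directed. The position of the binding site within or near it is not given in the sources used here. The capitals mark the only CCAAT in the window.
Ptn promoter: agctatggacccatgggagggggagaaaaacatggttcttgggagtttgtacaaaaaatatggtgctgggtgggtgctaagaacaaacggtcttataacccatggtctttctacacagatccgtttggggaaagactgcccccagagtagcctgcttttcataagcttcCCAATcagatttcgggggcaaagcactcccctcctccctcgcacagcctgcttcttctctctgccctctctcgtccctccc
CCAAT, read on both strands, was found in 33.8% of 32851 RefSeq promoter windows of the same length. TATAAA (12.4% of windows) and GGGCGG (32.7%), also read on both strands, were not among these letters.

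Levels are log2 of the processed signal relative to the array's 75th percentile, after correction for the dim and bright patches on the arrays, and a difference is DEL minus Delta on that log2 scale unless another is named. The 75th percentile of the signal lay between 574 and 935 on the 8 arrays, and 34.4 to 43.8% of spots were well above background. Slide 1 carried replicates 1 and 2 and slide 2 carried replicates 3 and 4. The coefficient of variation among spots of the same probe was 52.4 to 85.4% on the first and 12.2 to 37.1% on the second. Patches took 24.4 to 34.3% of spots out of the slide 1 arrays and 1.76 to 13.3% out of those of slide 2, which is why many genes below have fewer than 4 values in a group. Replicates 1 and 3 lay in slide row 2 and replicates 2 and 4 in slide row 1. All DEL arrays lay in slide column 3 and all Delta arrays in column 4, so the construct and the column cannot be told apart. The 8 ES cell markers (Pou5f1, Sox2, Nanog, Zfp42, Esrrb, Dppa5a, Fgf4 and Tdgf1) were well above background wherever they had a value. Of the defining markers of other cells, Dcn, Lum, Postn and Pdgfrb (fibroblasts), Elf5, Hand1, Plac1, Prl3d1 and Tpbpa (trophoblast), Afp and Ttr (endoderm) and Dcx (neurons) were above background on no array of either group. Other markers on these lists were detected on at least as many arrays with a value as not: 3 of 8 for fibroblasts, 2 of 7 for trophoblast, 4 of 6 for endoderm and 3 of 5 for neural cells, and in each list 1 marker was detected wherever it had a value. The median level (log2) over the neural markers, each taken as its median over the arrays of a group, was -0.17 in DEL and -1.19 in Delta. It was -3.08 and -3.70 for fibroblasts, -4.23 and -4.15 for trophoblast and -2.30 and -2.58 for endoderm. Their part in any difference was not tested.

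No probe passed the threshold between DEL and Delta. The main test averaged the arrays of a group to 2 samples in each of the 3 ways the 4 numbers can be paired and kept the largest p; it called 0 of 19393 probes (0% called), with 18 at an unadjusted p under 0.05. The fit of single arrays, with slide and slide row as terms, also called 0 of 19575 probes (0% called), and the smallest adjusted p in limma was 0.99986. In that fit 173 probes had an unadjusted p under 0.05 (0.884%). Counting technical repeats as replicates can make the p-values and intervals of a fit too small by an unknown amount. As a set these p-values were not small: 0.884% is less than the share of 0.05 that chance gives where no probe differs. That low share depended on the setting, though none of the following called a probe. It was 5.39% without patch correction and 5.06% on the deposited values. With arrays weighted by their own spread it was 4.10%, and with normexp background correction and quantile normalization 4.09%. The SE of the main array fit also drew on the eGFP and VP64 arrays. Fitted on the DEL and Delta arrays alone, the median SE was 0.190, and 1.51% of probes had an unadjusted p under 0.05 in limma. Which of these effects was larger was not tested. The median absolute difference over all probes tested was 0.142, the median difference was -0.007, and the median SE was 0.289. A difference beyond 1 log2 unit in either direction was estimated for 352 probes (1.80%). Among the 4618 probes tested with a value on all 8 arrays, the 4 DEL arrays lay above all 4 Delta arrays for 11 probes (0.238%) and below them for 18 (0.39%), together 0.628% of these probes. With a window of 41 spots in place of 21 for the patch correction, the array fit called 3 probes (of Iars2, Dph1 and Nudt21, named after their values were seen), each with values on 3 DEL arrays; the pairing test gave all 3 an adjusted p of 1.

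A p that misses the threshold does not show that 2 profiles are alike, so the widths of the 95% intervals were counted. In the array fit the interval lay wholly within 1 log2 unit of 0, which is a change of less than 2-fold either way, for 12499 of 19575 probes (63.9%). It lay within 0.5 log2 units for 2601 probes (13.3%). When the arrays were averaged to 2 samples a group, the intervals of all 3 pairings lay within 1 log2 unit for 7697 of 19393 probes (39.7%) and within 0.5 log2 units for 33. For the remaining probes the interval reached beyond a 2-fold change. These shares depend on the patch correction: without it the array-fit interval lay within 1 log2 unit for 0.314% of probes, and on the authors' deposited values for 0.483%.

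The DEL and Delta arrays with the same replicate number lay closer together than all 6 pairs of DEL arrays did, and than the pairs of Delta arrays did except that pair 3 lay beyond the closest of these. Over the 3170 probes well above background on all 8 arrays, the median absolute difference was 0.103 between DEL 1 and Delta 1, and 0.162 between DEL 2 and Delta 2. It was 0.199 between DEL 3 and Delta 3 and 0.108 between DEL 4 and Delta 4. Within DEL the 6 pairs of arrays lay 0.201 to 0.364 apart, and within Delta the 6 pairs lay 0.177 to 0.343 apart. The 12 pairs of a DEL and a Delta array with different numbers lay 0.171 to 0.426 apart, about as far as arrays of 1 construct. Pearson's r across these probes was 0.979 to 0.996 for the same-numbered pairs, 0.960 to 0.980 within DEL and 0.963 to 0.975 within Delta; probes are not independent replicates, and the arrays share the same probes and the same correction. For 7 of the 8 arrays the closest other array was the same-numbered array of the other construct, the exception being Delta 3, which was closest to DEL 1 at 0.171. Same-numbered DEL and Delta arrays are also neighbours on the slide, and whether a shared culture or a shared place on the slide goes with the likeness cannot be told apart.

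**Figure D1:**
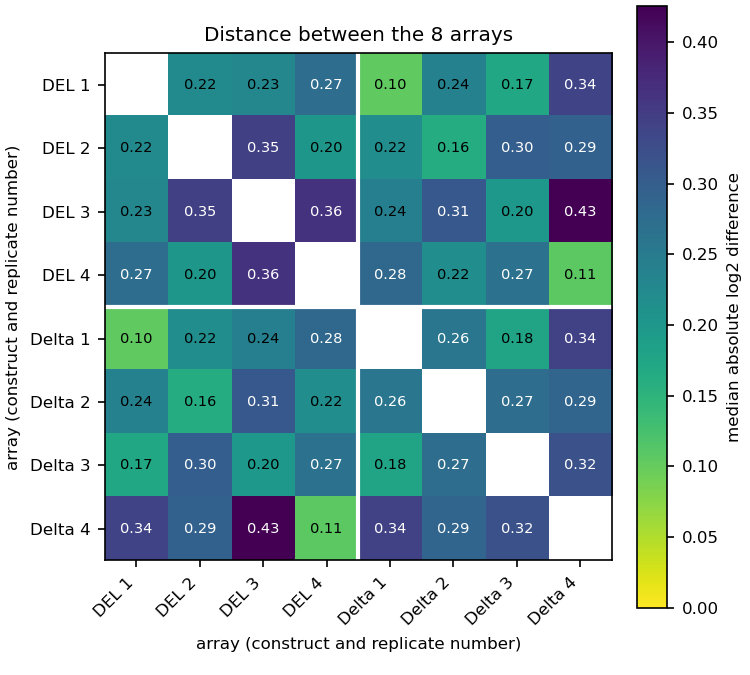
Heat map of the median absolute log2 difference between each 2 of the 8 arrays, over 3170 probes well above background on all of them; rows and columns are arrays, named by construct and replicate number and darker cells mark arrays farther apart. The 4 same-numbered DEL and Delta pairs stand out at 0.103 to 0.199, below most pairs of the same construct.

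Much of this likeness depended on the patch correction. On uncorrected levels, over a different set of 5899 probes, the same-numbered pairs 1 to 4 lay 0.1775, 0.6339, 0.2312 and 0.1489 apart. Pairs within DEL lay 0.333 to 0.704 apart and pairs within Delta 0.311 to 0.585. Same-numbered pair 2 thus lay beyond every pair within Delta, while pairs 1, 3 and 4 lay below every pair within DEL or within Delta. The closest array was then the same-numbered one for 6 of the 8 arrays. Pearson's r of the same-numbered pairs was then 0.738 to 0.975, against 0.807 to 0.923 within DEL and 0.762 to 0.944 within Delta. DEL 1 and Delta 1 had the lowest of these values, with 22.3% of probes more than 1 log2 unit apart. Averaged over their 4 arrays, the DEL and Delta profiles had a median absolute difference of 0.0927 and an r of 0.996, and 0.284% of the 3170 probes lay more than 1 log2 unit apart. Some 245 of these probes were saturated on at least 1 array, where differences are compressed; without them the mean distance of the same-numbered pairs was 0.140, against 0.143 with them. Only 272 probes were well above background on all 16 arrays, and over these the same-numbered distance of DEL and Delta was 0.0973 to 0.206, while every other 2 of the 4 groups lay 0.187 to 0.494 apart. DEL and Delta lie in adjacent slide columns, as do VP64 and DEL (0.187 to 0.419) and eGFP and VP64 (0.252 to 0.410). Every other 2 groups include eGFP or VP64 arrays, whose quality varied. Patches took 39.9% of spots from eGFP 1, and the 75th percentile of eGFP 2 was only 209. VP64 3 and 4 lost 4.31% and 1.34% of spots. The part of array quality in these distances was not tested.

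**Figure D2:**
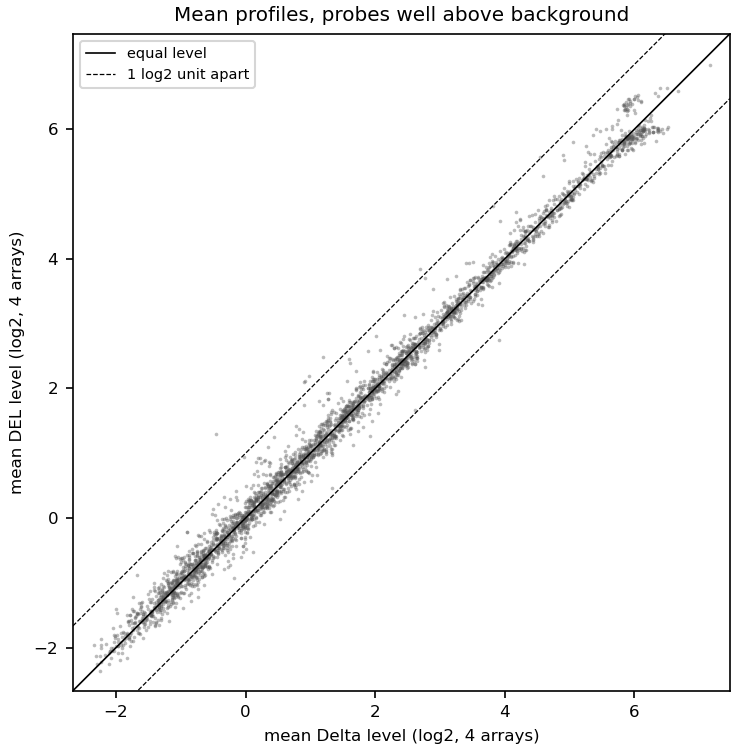
Mean DEL level against mean Delta level (log2, 4 arrays each) for the 3170 probes well above background on all 8 arrays; the solid line marks equal levels and the dashed lines 1 log2 unit either way. Only 0.284% of the probes lie outside the dashed lines.

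Ptn, the gene at which both constructs were aimed, did not differ between them beyond the spread of the arrays. With the brighter of its probes, DEL 2 read 1.01, DEL 3 read -1.76 and DEL 4 read 0.14, and DEL 1 lay in a patch and had no value. Delta read -0.47, -0.41, -0.79 and 0.13 in replicates 1 to 4. The DEL arrays enclosed the Delta arrays, and the means were -0.20 ± 1.42 (SD, n = 3) and -0.38 ± 0.38 (SD, n = 4). The signal was well above background on 2 of 3 DEL arrays and 3 of 4 Delta arrays, so in both groups not every value was well above background. The fitted difference was 0.06 ± 0.41 (SE) with a 95% interval of -0.87 to 0.99 (adjusted p = 1 in limma), and the pairing test gave an adjusted p of 1 too. The difference was 1.45 on slide 1, where it rests on 1 DEL array, and -0.48 on slide 2. It turned to -0.85 without patch correction, to -0.71 on the deposited values, to -0.37 without DEL 2 and to -0.28 without Delta 2, so its direction was not settled. The other Ptn probe, well above background on 3 of the 6 arrays with a value, gave -1.01 ± 1.31 (SD, n = 3) in DEL and -0.94 ± 1.34 (SD, n = 3) in Delta.

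The pleiotrophin family and its receptors were described next, since the ligand acts through them. Of 15 genes listed, 11 were tested, none passed, 4 had a positive and 7 a negative difference, and the median was -0.043 against -0.007 over all probes. Mdk, which codes for midkine, the other ligand of the family, read 3.75 and 4.58 in DEL 3 and 4 and 3.84 and 3.93 in Delta 1 and 3, a difference of 0.08 ± 0.33 (SE). Ptprs, a receptor phosphatase that binds heparan sulfate, was the best measured member with an interval of -0.48 to 0.40; DEL read 3.08, 2.81, 3.29 and 2.81, and Delta read 3.11, 2.98 and 2.98 in replicates 2 to 4. Itgav, an integrin subunit, had a difference of -0.03 ± 0.20 (SE). The receptor kinase Alk (-0.39 ± 0.28), the receptor phosphatase Ptprz1 (-0.36 ± 0.33) and the syndecan Sdc1 (-0.54 ± 0.36) were the members with the smallest p, and the intervals of all 3 held 0. Ltk, Sdc3, Nrp1 and Itgb3 were not tested, being well above background on at most 1 of the 8 arrays.

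Genes near Ptn in the order of the genome were examined because opened chromatin could reach past the target. Of 25 listed, 12 were tested, 8 had a positive and 4 a negative difference, none passed, and the median was 0.068, which ran from -0.113 to 0.371 over the alternatives. Nup205, which codes for a nuclear pore protein, read 4.64, 4.79, 4.58 and 5.05 in DEL and 4.66, 4.78, 4.69 and 5.20 in Delta, so each DEL array lay close to the same-numbered Delta array. Its interval was -0.45 to 0.32. Akr1b3, an aldose reductase gene, had an interval of -0.35 to 0.41, though 2 of its Delta arrays were saturated. Akr1b8 (-0.20 ± 0.20), Bpgm, a red-cell glycolysis enzyme gene (0.14 ± 0.20), and Stra8, a gene of meiotic entry (0.35 ± 0.37), had the smallest p of the list. Dgki and Chrm2, the genes of a lipid kinase and of an acetylcholine receptor, were above background on no array.

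**Figure D3:**
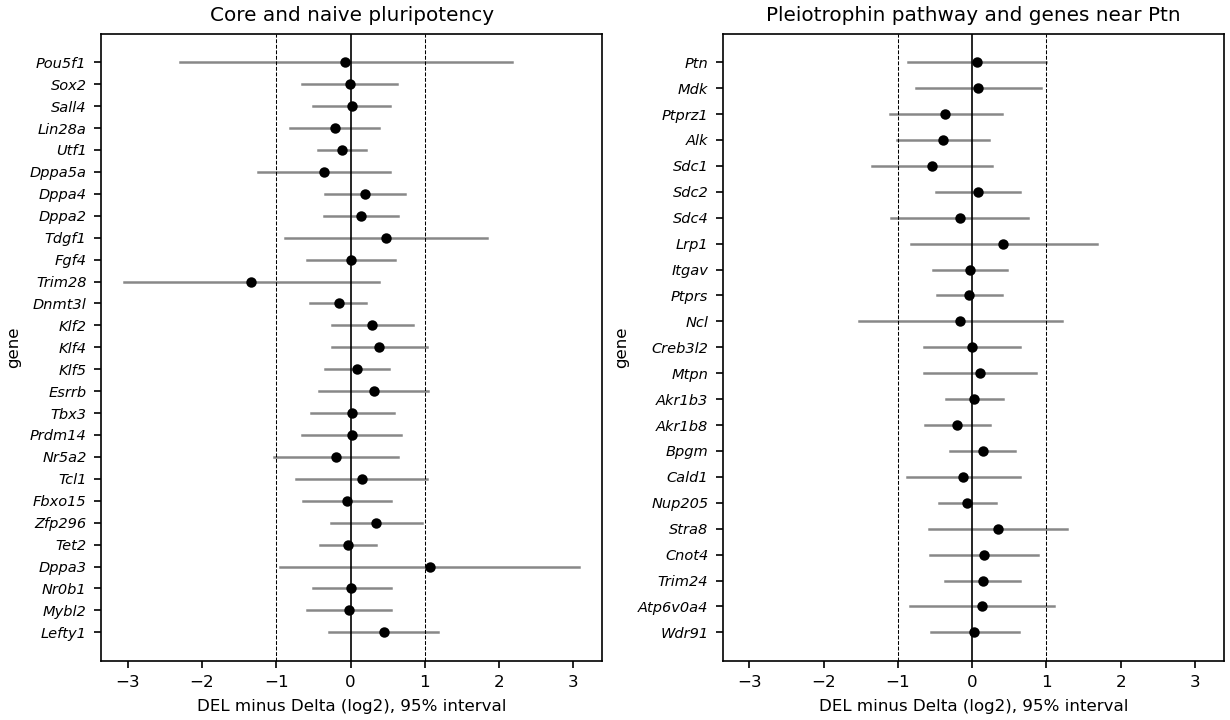
Differences DEL minus Delta (log2, points) with the 95% intervals of the array fit (lines) for the 27 tested genes of core and naive pluripotency and for the tested genes of the pleiotrophin pathway and the surroundings of Ptn; dashed lines mark 1 log2 unit either way. Every interval holds 0, and those of 17 pluripotency genes lie wholly within 1 log2 unit.

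No gene of pluripotency, which marks the undifferentiated state, passed the test. Of 30 listed, 27 were tested, 16 had a positive and 11 a negative difference, none passed, and the median was 0.016. The intervals of 17 lay within 1 log2 unit in the array fit, and those of 13 in all 3 pairings. Sox2 read 5.15, 5.28 and 4.83 in DEL 1, 3 and 4, and 5.37, 5.22 and 4.60 in Delta 2, 3 and 4, a difference of -0.01 ± 0.27 (SE). Nr0b1, an orphan nuclear receptor of ES cells, read 4.68, 4.52, 5.01 and 4.42 in DEL and 4.58, 4.97, 4.70 and 4.34 in Delta (0.01 ± 0.24). The 2 groups overlapped for both genes. Klf4, a reprogramming factor, read 4.45, 4.79, 4.79 and 4.44 in DEL and 4.39 and 4.17 in Delta 3 and 4; all 4 DEL values were above both Delta values, and the interval was -0.25 to 1.03. Trim28, a corepressor of retroelements, had the largest negative difference (-1.34 ± 0.77), which 1 array set: DEL 4 read 1.48 while DEL 2 and 3 read 5.31 and 5.45 and the Delta arrays read 5.21 to 5.68. Utf1, an ES cell chromatin protein gene, had a narrow interval (-0.44 to 0.21), with 2 arrays saturated in each group. Nanog, Zfp42 and Tfcp2l1 had a value on only 1 Delta array and were not tested.

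LIF signalling keeps these cells undifferentiated through the receptor chains Lifr and Il6st. Of 13 genes of this path, 12 were tested, 7 positive and 5 negative, with a median of 0.077 and none called. Lifr had the smallest p of the list: DEL 2, 3 and 4 read 3.46, 3.50 and 2.81, and Delta read 2.75, 3.25, 2.69 and 2.69. The difference was 0.46 ± 0.21 (SE), 0.46 on slide 1 and 0.47 on slide 2, the interval was -0.01 to 0.94, and the ranges of the groups overlapped. Il6st (0.07 ± 0.16) and Socs1, a feedback inhibitor of the pathway (-0.05 ± 0.18), had narrow intervals around 0. For the primed epiblast, the next state in the embryo, 9 of 12 genes were tested with a median of -0.007; Otx2 (0.04 ± 0.18) and Dnmt3a (-0.05 ± 0.16) were well measured, and Lef1 (-0.69 ± 0.50) varied with the replicate number as given further on.

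No gene of the stress and transfection responses listed passed the test. In the p53 response, which DNA damage or foreign DNA can start, 32 of 34 genes were tested, 16 positive and 16 negative, with a median of -0.005; the cell-cycle inhibitor gene Cdkn1a had an interval of -0.42 to 0.27 and the exonuclease gene Aen one of -0.30 to 0.32. Aen read 5.30, 5.18, 5.30 and 5.36 in DEL and 5.12, 5.37, 5.22 and 5.40 in Delta. Of 20 genes of the integrated and endoplasmic reticulum stress responses, 19 were tested with a median of 0.039; Chac1 (0.22 ± 0.22), Trib3 (0.18 ± 0.20) and Herpud1 (0.29 ± 0.28) had the smallest p. Among heat shock genes, 9 of 10 were tested, 3 positive and 6 negative, with a median of -0.080, and 5 of the 9 were saturated on at least 1 array. Hspb1, a small chaperone gene, read 5.47, 5.34, 6.05 and 6.07 in DEL and 7.29, 6.21 and 6.14 in Delta 2, 3 and 4; the groups did not overlap, the difference was -0.72 ± 0.37 (SE) and only -0.12 on slide 2, and 3 of its DEL arrays were saturated. Interferon and innate sensing genes, 14 tested of 27, had a median of -0.002 and immediate early genes, 11 of 15, a median of -0.023. Stat2, an interferon signal transducer, gave 0.75 ± 0.56; Delta 3 read -1.63 and the other Delta arrays read 0.73 to 1.35. The interval of Ifitm3, an antiviral membrane protein gene, was -0.23 to 0.42.

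No gene of another lineage passed the test; in bulk RNA, fewer cells of a type and less RNA per cell cannot be told apart. The medians were -0.055 for trophoblast (11 of 21 tested), -0.066 for endoderm (11 of 18), -0.206 for mesoderm and primitive streak (3 of 11), -0.009 for neural genes (5 of 15), -0.226 for fibroblast genes (5 of 13) and -0.129 for the 2-cell-like state (6 of 11). In the germline list 9 of 10 tested genes had a positive difference, with a median of 0.204; Hormad1 (0.46 ± 0.27), Taf7l (0.44 ± 0.27) and Sycp3 (0.42 ± 0.35), genes of meiosis and of germ cell transcription, had the smallest p, and none passed. Over all probes 9501 of 19575 were positive. Sox1, a neural progenitor gene, read -1.0, 2.45, -1.13 and 0.66 in DEL and -1.20, -0.73 and -1.19 in Delta 1, 2 and 3. DEL 2 and DEL 4 were high and the other 2 DEL arrays were at the Delta level, so the difference had an SE of 0.59 and an interval of -0.21 to 2.41. Lamb1, a laminin chain gene of basement membrane, gave 1.36 ± 0.60; DEL read 3.12 to 3.93, Delta 3 and 4 read 3.40 and 3.12, and Delta 1 alone read 0.36. Zscan4c, a gene of the 2-cell-like state, read 2.30 to 3.11 in 3 DEL arrays and 2.97 to 3.22 in Delta (-0.46 ± 0.24).

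Chromatin genes were examined because DEL acts on chromatin. Of 17 remodelling genes, 15 were tested, 3 positive and 12 negative, with a median of -0.091 that ran from -0.255 to 0.079 over the alternatives; the remodeller Chd4 was well measured (-0.04 ± 0.14). Hmgb1, a DNA-bending protein gene, gave 0.60 ± 0.46, with Delta 3 at 3.16 and the other Delta arrays at 5.16 to 5.43. Of 16 Polycomb genes, 14 were tested with a median of 0.023, and the Polycomb reader gene Cbx2 had an interval of -0.42 to 0.25. Ezh2, the methyltransferase of the complex, read 3.80, 3.95, 3.99 and 3.64 in DEL and 3.80, 3.86, -0.30 and 3.41 in Delta, so its difference of 1.15 ± 0.71 (SE) rests on Delta 3; on slide 1 it was 0.04. Nuclear lamina and envelope genes (11 of 12 tested) had a median of 0.076, and Sun1 (-0.06 ± 0.17) and Sun2 (0.11 ± 0.17), which tie the lamina to the cytoskeleton, were well measured. Of the Mediator complex, which joins activators to the polymerase, 11 of 15 genes were tested with a median of -0.027. Med7 had an SE of 0.12: DEL read 4.13, 4.12, 4.16 and 4.11, and Delta read 4.10, 4.23, 3.99 and 4.10. Cell cycle genes (18 of 20) had a median of 0.018, with Ccnb1 at -0.12 ± 0.14. Ribosomal protein genes (19 of 20) had a median of -0.152 with 6 positive and 13 negative, but 18 of the 19 were saturated on at least 1 array and their differences are compressed.

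Both lists below were chosen from these arrays and are no independent evidence of direction. Of 18 genes named as higher after VP64, 12 were tested here, 3 positive and 9 negative, with a median of -0.153. Il33 (-0.39 ± 0.27), an alarmin cytokine gene, had the smallest p and did not pass. Of 8 genes named for DEL against eGFP, 6 were tested, 1 positive and 5 negative, with a median of -0.254 and none called. Itga8, an integrin chain gene, gave -0.30 ± 0.18, the odorant receptor gene Olfr1496 -0.57 ± 0.38 and Cdh10, a cadherin gene, -0.23 ± 0.23, and the intervals of 4 of the 6 lay within 1 log2 unit in the array fit and in all 3 pairings.

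With no gene past the threshold, the 8 higher and 8 lower genes with the smallest array-fit p were read one by one, and each had an adjusted p of 1 in limma after rounding. Because they were picked by p from these same values, groups that do not overlap are no separate evidence. On the higher side, Capn13, a calpain protease gene, stood out in size: DEL read -1.44, -0.90, -1.75 and -1.22, all well above background. Delta read -5.19, -5.89 and -3.49 in replicates 1, 2 and 4, none of them well above background, so the size of the difference is not settled. The 95% interval of the array fit was 2.02 to 5.13 (adjusted p = 1 in limma). With Delta values raised to the lowest level well above background on their array, DEL was 5.25-fold higher. That is no strict bound, since other probes were not well above background at higher levels, such as Zc2hc1c below. The groups did not overlap, and the gene has 1 probe. Exosc9, a subunit of the RNA exosome, was the brightest of the 16; DEL read 3.63, 4.44, 3.16 and 3.50 and Delta 3.33, 3.25, 2.57 and 3.29, with a difference of 0.57 ± 0.18 (SE) and overlapping ranges. Mylk2, a muscle myosin kinase gene, read -1.79, -1.70 and -1.64 in DEL and -2.88, -2.56, -4.04 and -3.16 in Delta, with no overlap (1.69 ± 0.63). The autophagy gene Atg2b (0.59 ± 0.21), the heart kinase gene Alpk3 (0.80 ± 0.24) and the zinc finger gene Zscan5b (0.89 ± 0.25) did not overlap either, and all 3 lay below the array's 75th percentile in every value. Delta was well above background on 1 of 3 arrays for Zscan5b, 2 of 3 for Atg2b, 3 of 4 for Alpk3 and 2 of 4 for Mylk2, so these differences rest partly on signals near background. Camta2 (3.04 ± 1.06) and Tbc1d5 (0.70 ± 0.27) overlapped; for Camta2 the Delta arrays ran from -5.06 to 0.42, and only 1 of the 3 was well above background.

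On the lower side the differences were mostly of weak genes. Zc2hc1c read -2.31, -2.13, -3.67 and -2.87 in DEL and -2.53, -0.79, -0.90 and -0.13 in Delta, so 3 Delta arrays were above all DEL arrays and Delta 1 was among them (-1.66 ± 0.51). Only 1 of the 4 DEL arrays was well above background for Zc2hc1c, likewise for 4930426D05Rik, and 2 of 4 were for Oscar, Cyp2r1 and Pnpla7. Gm6614 read -3.01 to -2.28 in DEL and -1.91, -0.63 and -0.70 in Delta, with no overlap (-1.64 ± 0.57). Oscar, a collagen receptor gene of osteoclasts, read -3.40 to -2.27 in DEL and -2.21 to -2.07 in Delta (-0.64 ± 0.23), and Cyp2r1, a vitamin D hydroxylase gene, read -3.40 to -2.86 and -2.68 to -2.22 (-0.55 ± 0.22); neither overlapped. Pnpla7 (-2.19 ± 0.79) rested on Delta 2, which read 3.94 while the other 2 Delta arrays read -0.57 and -0.72. Grrp1 (-0.40 ± 0.15) was the only one of the 16 whose intervals lay within 1 log2 unit in all 3 pairings; it was also 0.92 lower in slide row 2, as described for other genes next. Nt5e, an ecto-nucleotidase gene, gave -0.65 ± 0.25 and 4930426D05Rik -1.27 ± 0.51, both overlapping. With normexp background correction and quantile normalization the differences of Alpk3, Exosc9 and Nt5e changed sign, and that of Nt5e did so too without patch correction and on the deposited values.

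**Figure D4:**
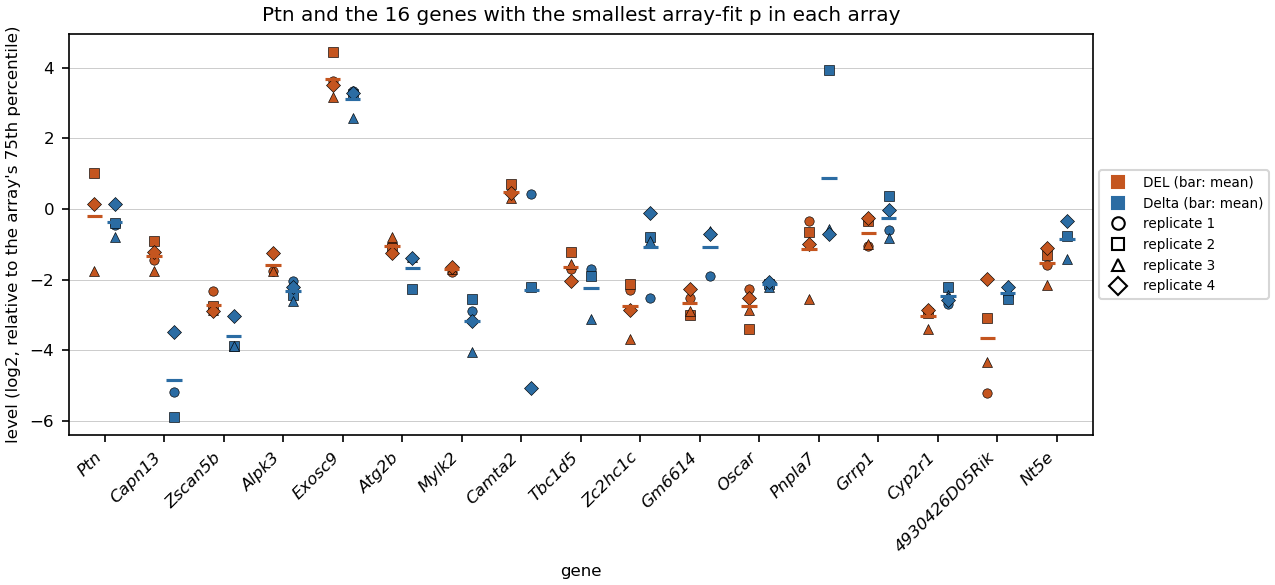
Levels (log2, relative to the array's 75th percentile) of Ptn and of the 16 genes with the smallest array-fit p in each of the 4 DEL and 4 Delta arrays; colour gives the construct, marker shape the replicate number, and bars the group means. Only Capn13, Zscan5b, Alpk3, Atg2b, Mylk2, Gm6614, Oscar and Cyp2r1 have groups that do not overlap, and none passed the threshold.

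On the main levels more probes were called for slide row than for construct. The array fit used all 16 arrays, eGFP and VP64 among them. Its row term compared 8 arrays with 8 and its construct term 4 with 4. The counts of calls therefore do not show which of these differences was larger. In the fit that gave 0 calls for the construct, slide row, which separates replicates 1 and 3 from replicates 2 and 4, had 455 of 19573 probes called (2.32%), 294 higher in row 2 (1.5%) and 161 lower (0.823%). Slide itself had 9 of 19571 probes called (0.046%), 5 higher on slide 2 (0.0255%) and 4 lower (0.0204%). Because replicates 1 and 3 always lay in row 2, the row cannot be told apart from a culture or RNA sample that those numbers share. The row difference was computed separately in DEL and in Delta over 4618 probes with values on all 8 arrays, and the 2 sets of differences had a Pearson r of 0.619, with no array in common. Without the patch correction r fell to 0.264, over 12282 probes. Over the 455 probes the median absolute row difference was 0.949, and their median absolute difference between DEL and Delta was 0.127. These probes were picked by the row term of the array fit, so a large row difference among them was fixed in advance. Over all probes tested the median absolute difference between DEL and Delta was 0.142. With the 8 arrays alone the count of row calls was 283, and only 152 of the 455 were called in that fit too. All 452 of the 455 with a value there kept their sign. When 1 array was left out the count was 228 (without DEL 1) to 318 (without Delta 2). It was 6 without patch correction, 10 on the deposited values and 1 after quantile normalization, though 441 of the 455 kept their sign without the correction.

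Acta2, Tagln and keratin genes were higher in replicates 1 and 3 of both constructs; these genes, as all named for the slide row, were chosen after their values were seen. Acta2, the smooth muscle actin gene, read 3.19 and 2.84 in DEL 1 and 3 and 3.04 and 3.35 in Delta 1 and 3. In DEL 2 and 4 it read -0.04 and 0.57, and in Delta 2 and 4 -0.50 and 0.25, so the row difference was 2.94 ± 0.16 (SE; adjusted p = 1.0e-05 in limma), while DEL and Delta differed by 0.11 ± 0.22. Of the 20 genes with the largest row differences, only Acta2 (adjusted p = 0.00811), C2 (0.0132) and Skor1 (0.00934) were also called by limma without patch correction; for Tagln this adjusted p was 0.61, for Krt19 0.128, for Krt8 0.583 and for Thbs1 0.694. In the fit of the 8 arrays alone Tagln (adjusted p = 0.0825), Cubn, Srgn and Capn3 lost the call. Tagln, an actin-binding protein gene of the same cells (3.22 ± 0.43), and the keratin genes Krt19 (2.35 ± 0.22), Krt8 (2.22 ± 0.31) and Krt18 (1.95 ± 0.21) were called in the same direction, Krt18 from slide 2 alone. Krt19 read 1.98 and 1.70 in DEL 1 and 3, 2.15 and 2.16 in Delta 1 and 3, -1.24 and -0.20 in DEL 2 and 4, and -0.55 and -0.18 in Delta 2 and 4. The septin gene Septin4, the serine protease gene Prss23, the actin-severing protein gene Gsn, the matrix gene Thbs1, the complement gene C2 and the cytokine gene Csf1 were also among the 10 largest. Near Ptn, Cald1, a gene of the contractile apparatus, was 1.35 ± 0.24 higher in row 2 and Akr1b8 0.80 ± 0.14 lower, the only 2 of its 12 tested neighbours called; neither was called without patch correction (adjusted p in limma 0.698 and 0.765).

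Other genes were higher in replicates 2 and 4 of both constructs. Skor1, a transcriptional corepressor gene of neurons, read 0.06 and 0.09 in DEL 2 and 4 and 0.20 and 0.35 in Delta 2 and 4, against -4.10 to -2.85 in the arrays of row 2 (-2.77 ± 0.30, adjusted p = 0.00127 in limma). Atp1a4, a sodium pump subunit gene, read 0.84 to 1.13 in row 1 and -2.11 to -1.69 in row 2. Lef1, a Wnt pathway transcription factor gene, Gbx2, a homeobox gene of the LIF response, Sox3, Myc and the heat shock gene Hspa1a were also called higher in row 1, by 1.77, 1.23, 0.69, 0.67 and 1.42 log2 units. Cubn, Jph4, Srgn, Prmt8, Edn2, Car3 and Capn3 completed the 10 largest. Of the lists, trophoblast had 4 of 11 tested members called higher in row 2 (Krt8, Krt18, Krt19 and Rhox6), against 1.5% of all probes. The list named for VP64 had 6 of 12 (Fhl2, Thbs1, Pmp22, Krt18, Krt19 and Rhox6), against the same 1.5%. That list was chosen from these same arrays and shares Krt18, Krt19 and Rhox6 with the trophoblast list. Its share is therefore no separate evidence. Apart from Acta2, no list member called for the row kept its call without patch correction. None of the 27 pluripotency genes was called for the row.

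**Figure D5:**
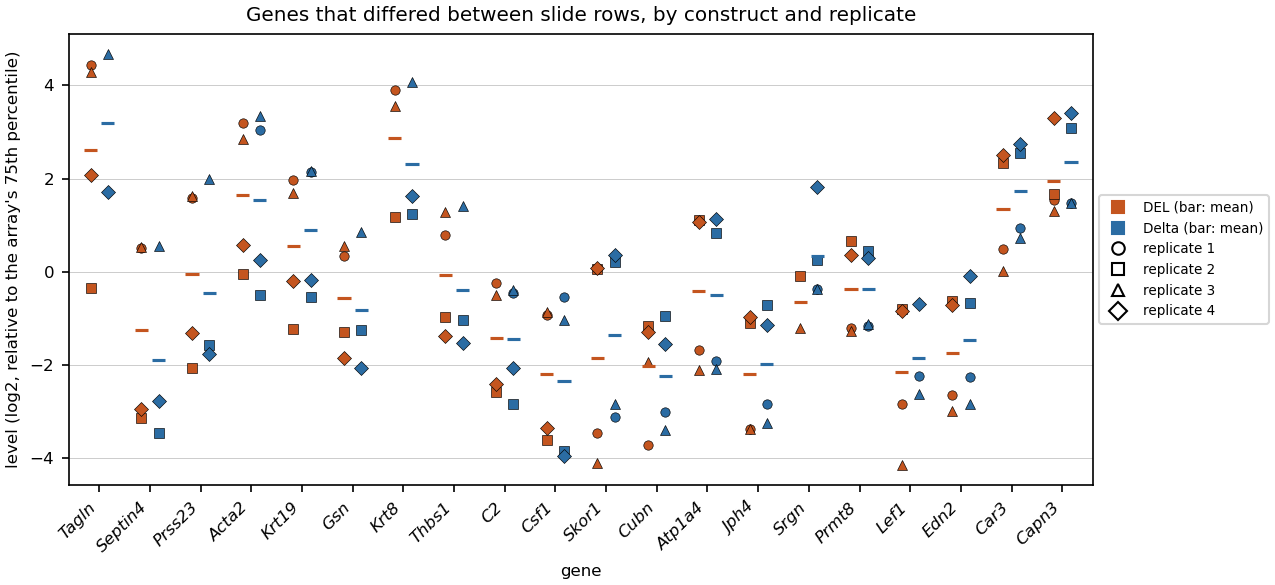
Levels (log2, relative to the array's 75th percentile) of the 10 genes with the largest slide-row difference each way, in each of the 4 DEL and 4 Delta arrays; colour gives the construct, marker shape the replicate number, and bars the group means. For each of the 20 genes the row 2 arrays (replicates 1 and 3) lie on 1 side of the row 1 arrays (replicates 2 and 4) in both colours.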

How the data were processed

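Polyadenylated RNA was labelled with Cy3 and hybridised to 1-colour Agilent mouse arrays, 16 in all. Per the file headers, spot intensities were made with Agilent Feature Extraction 11.5.1.1, which subtracted background and removed a spatial trend within each array. The deposited value table holds the authors' log2 values of the same arrays, and was used as an alternative only. The 59305 non-control spots were scaled to each array's 75th percentile and taken to log2. Dim and bright patches were measured as the median, in a window of 21 by 21 spots, of each spot's level minus its median over the 16 arrays. That shift was subtracted, and spots where it lay over 1 log2 unit from the array's own median shift were left out. Spots were averaged to 55681 probes, of which 27656 carried 1 gene symbol and 28025 none; symbols were updated through RefSeq GRCm38.p6.

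Tested probes had a signal well above background in 4 or more of the 8 arrays and values in 2 or more arrays of each group. They were fitted with limma 3.58.1 in R 4.3.3 on all 16 arrays. The pairing test was used because which arrays repeat a sample is unknown; the array fit had slide and slide row as terms. Calls were made at a Benjamini-Hochberg adjusted p under 0.05, and the scripts were tested on simulated data. The replicate numbers paired DEL with Delta arrays for the distances and in the replicate block alternative, but not in the pairing test or the array fit. On corrected levels, same-numbered DEL and Delta arrays deviated together (r from 0.394 to 0.656 over 4618 probes). Without patch correction these r were -0.0217, 0.362, 0.156 and 0.222 for replicates 1 to 4, and replicate 1 correlated better with another number (0.104), so the pairing rests on the correction.

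The genes named are Ptn, the 8 higher and 8 lower with the smallest array-fit p, and for each list up to 3 members with the smallest p and up to 2 with the narrowest interval; other members were named after their values were seen. The members, lists and tests were chosen with earlier results of these data known. Alternatives were other normalizations, filters, patch settings, designs and leaving out each array. P-values measure the spread between these arrays, which is partly technical, and the number of arrays limits the precision.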

Additional observations from a re-analysis of the deposited data

Results flagged for a closer look

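In 10 of 161 groups of 4 arrays, 1 array lay far from the other 3; chance gives about 5% of such groups. Delta replicate 3 read 2.57 for Exosc9 (others 3.25 to 3.33), 0.53 for Ep300 (0.18 to 0.19), 3.16 for Hmgb1 (5.16 to 5.43) and -0.30 for Ezh2 (3.41 to 3.86). Delta replicate 2 read 3.25 for Lifr (2.69 to 2.75), -0.84 for Socs1 (-1.06 to -1.03) and -1.38 for Map2 (0.04 to 0.18). The same array read 1.74 for Col3a1 (-1.44 to -0.94) and 0.54 for Sun2 (0.95 to 0.97). DEL replicate 4 read 6.29 for Dnmt3l (5.56 to 5.67).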

How the results depend on the processing

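The pairing test called 0 probes under all 21 alternatives. It keeps the largest of 3 p-values, which makes calls rare, and its smallest adjusted p in limma was 0.99997 in the main run. These counts therefore say little about how alike the profiles are. The array fit called 3 with a window of 41 spots, and 0 with the replicate block. With that block 227 probes had an unadjusted p under 0.05 in limma, and the smallest adjusted p was 0.0922. The percent of probes with an interval within 1 log2 unit was 0.483 on deposited values, 21.579 with no filter, 0.314 without patch correction, 19.92 after normexp with quantile normalization and 38.023 after quantile normalization alone. The mean same-numbered distance was 0.2979 without patch correction, 0.2304 with normexp and quantile, 0.3025 on deposited values and 0.2721 with no filter. The Ptn difference was -0.705 on deposited values, -0.417 with a patch limit of 0.5, -0.849 without patch correction, -0.514 with normexp and quantile, -0.48 on slide 2 alone and 1.447 within slide 1. It ran from -0.371 to 0.561 when 1 array was left out, and was 0.048 with the replicate block. Under normexp and quantile Alpk3 turned to -0.226, Exosc9 to -0.107 and Nt5e to 0.053; Nt5e was 0.427 on deposited values and 0.378 without patch correction. The slide row count was 6 without patch correction, 228 with window 41, 1 after quantile, 1 after normexp and quantile, 10 on deposited values, 268 with detection on all 8 arrays, 46 with no filter, 283 with the 2 groups alone and 228 to 318 without 1 array. Of 467 alternatives over the 16 named genes, 455 were counted as the same, 7 as moved and 5 changed sign. A refit counted as the same when it kept its sign and gained no call, whatever its size. Only values within a slide or slide row were compared with the spread of the array differences. The sizes could therefore shift widely, as for Zc2hc1c, which ran from -2.753 to -0.562 with every alternative counted as the same. Of 771 alternatives over 25 list medians 130 moved, with 14 of 31 for genes near Ptn and 19 of 31 for chromatin remodelling, and of 2709 over other list members 362 moved. Only some list medians kept their sign under every alternative run. They were those of endoderm, the integrated and endoplasmic reticulum stress responses, the 2-cell-like state and the genes named for DEL against eGFP. The cause of these shifts was not tested.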
